A study of Mus musculus with 12 samples.

Results

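The genes described here are the sarcomeric actins Acta1 and Actc1, the sarcomeric alpha-actinins Actn2 and Actn3, and the muscle tropomyosins Tpm1, Tpm2 and Tpm3, measured in embryonic mouse tongue at day 13.5 of development. They were listed by name, and no measured value enters the rule, although the list was drawn up with earlier results of these data known. All probe sets annotated to 1 of these symbols alone were taken, which gave 17 of the 45037 probe sets tested, for 7 of the 18193 genes. Acta1, Actc1, Actn2 and Actn3 had 1 probe set each, and the 3 tropomyosin genes shared the other 13. A gene's main value is that of its brightest probe set over all 12 arrays. Both groups were C57BL/6J embryos that carried Myf5-Cre, a Cre recombinase made where the muscle gene Myf5 is active. The 6 control samples were Myf5-Cre;Smad4flox/+, with 1 floxed copy of Smad4, and the 6 mutant samples were Myf5-Cre;Smad4flox/flox, with both copies floxed. Smad4 is the shared partner of the SMADs that carry TGF-beta and BMP signals into the nucleus. Controls can therefore lose 1 copy of Smad4 in the same cells in which mutants can lose both, and only cells that had Myf5-Cre, or descend from such cells, can lose it. The labels call the samples biological replicates, and give neither litter nor the number of tongues pooled in a sample, so the p-values measure the spread between these samples.

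A sarcomere is the contractile unit of striated muscle. Its thin filaments are polymers of actin, with tropomyosin lying along the actin strand and, with the troponins, making contraction depend on calcium. Alpha-actinin crosslinks the ends of thin filaments from neighbouring sarcomeres at the Z-disc. Embryonic skeletal muscle makes both the skeletal actin Acta1 and the cardiac actin Actc1. Muscle actin genes are textbook targets of serum response factor, which binds the CArG box in their promoters.

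RefSeq promoter windows of assembly GRCm38.p6 were matched by symbol for 6 of the 7 genes, with 2 windows for Tpm3, and Actn3 is named only. The 250 bases before the start site were searched on both strands for a CArG box, which was found in 2 of the 7 windows, those of Acta1 and Actc1. Of all 32851 windows of the same length, 1.47% held one. The stretches of these promoters from 120 to 21 bases before the start are shown because both actins fell in the mutant, beside that of Actg1, a cytoplasmic actin with a CArG box in its window that was not lower. All 3 genes lie on the minus strand, the sequences run 5′ to 3′ on it, and capitals mark the CArG box.
Acta1, chr8:123894796-123894895: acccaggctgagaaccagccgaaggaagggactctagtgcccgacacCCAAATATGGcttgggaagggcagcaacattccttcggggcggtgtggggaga
Actc1, chr2:114052896-114052995: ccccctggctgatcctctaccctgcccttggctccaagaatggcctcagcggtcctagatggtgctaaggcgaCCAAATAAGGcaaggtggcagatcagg
Actg1, chr11:120348516-120348615: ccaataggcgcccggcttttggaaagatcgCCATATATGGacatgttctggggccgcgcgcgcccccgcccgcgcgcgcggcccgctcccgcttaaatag

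The box began 73 bases before the start of Acta1, 47 before that of Actc1 and 90 before that of Actg1. The window of Acta2, the smooth muscle actin, which was also lower (-0.45), held no match to it. Of the other motifs searched, the E-box CANNTG, the letters bound by MyoD family factors, was in 6 of the 7 member windows and in 66.2% of all windows. The letters CATTCC, bound by TEAD factors, were in 2 windows, those of Acta1 and Tpm1, and in 12.6% of all. TATAAA was in 1 window, that of Acta1, and in 12.4% of all. CAGAC, letters bound by SMADs, was in 4 of the 7 windows and in 42.2% of all. The MEF2 motif was in 0 of the 7 and in 2.92% of all. A match is a description of the letters in the window and not of a bound site.

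The 12 arrays correlated with one another at 0.991 to 0.997. The first principal component held 35.0% of the variance, and mutants 1 and 2 lay farthest along it. Control 3, mutant 4 and mutant 6 carried signal of both sexes, from Xist together with Y-linked genes, and control 6 and mutant 6 had a low signal from the control probe set for ribosomal RNA. Counts and differences that changed without these arrays are given beside the result. Smad4 itself was at 12.29 ± 0.07 in controls and 12.14 ± 0.27 in mutants (SD, n = 6 each; difference -0.15 ± 0.10 SE, adjusted p = 0.427). Where its probes lie relative to the floxed part was not known here and the tissue was the whole tongue, so this value does not check the genotype.

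Acta1, Actc1, Actn2, Tpm1 and Tpm2 were lower in the mutant tongue, by 1.12-fold to 1.82-fold, while Actn3 and Tpm3 did not pass the test. Of the 7 genes, 5 were thus lower and 0 higher at an adjusted p under 0.05 (limma, adjusted over all 18193 genes), where 4.80% of all genes were lower and 6.30% higher. Every mutant array lay below every control array for 4 of them, Actc1, Actn2, Tpm1 and Tpm2, as for 2.90% of all genes, and every mutant lay above every control for 0 of the 7, as for 3.40% of all genes. The median change of the 7 genes was -0.51 log2 units, beside a median of 0.0083 over all genes. The count was 4 without mutants 1 and 2, without mutant 1 alone, and without control 3, mutant 4 and mutant 6, with Actc1 the gene that no longer passed. It was also 4, again without Actc1, with the replicate number added to the model, though the labels do not state pairing. In whole tissue, fewer muscle cells and less RNA per muscle cell cannot be told apart.

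**Figure D1:**
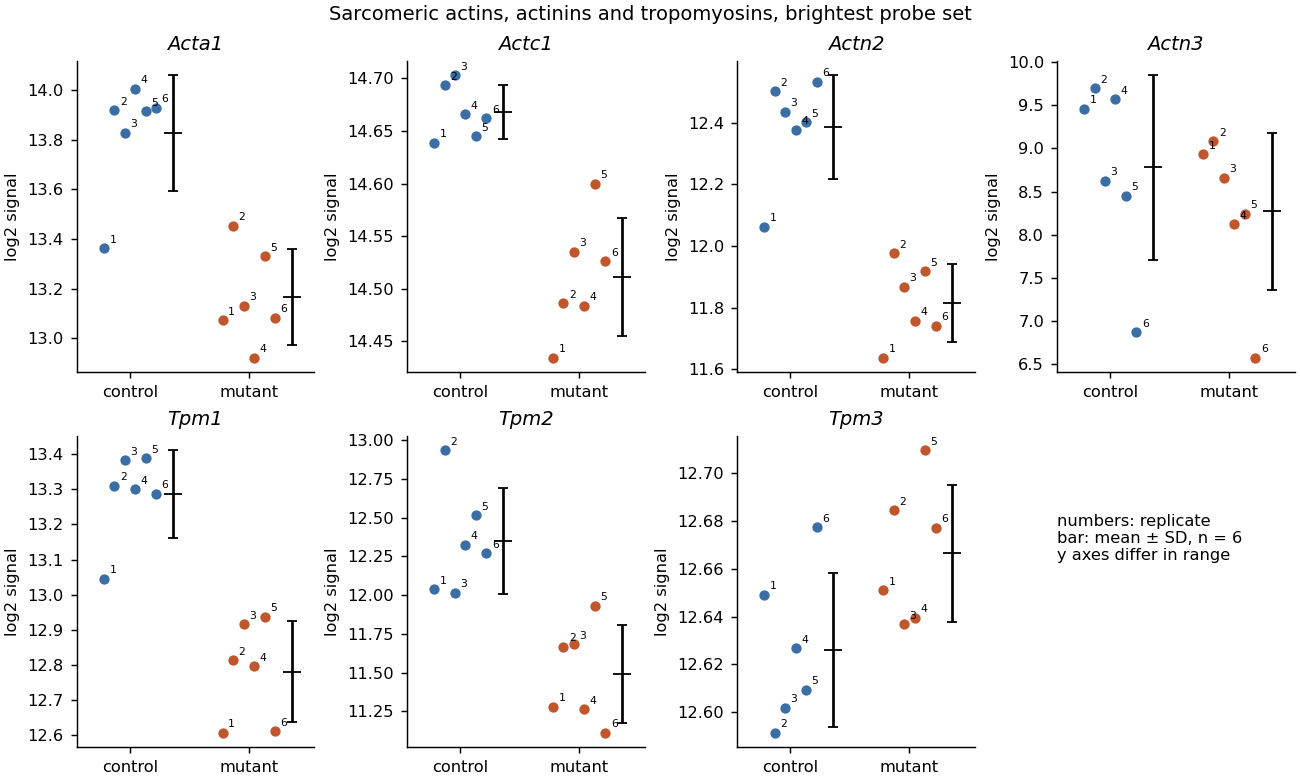
Log2 signal of the brightest probe set of each of the 7 genes on every array, with control and mutant on the x axis, a point per array and bars for the group mean and SD (n = 6 each). Groups do not overlap for Actc1, Actn2, Tpm1 and Tpm2, and control 1 is the low control for Acta1 at 13.36; each panel has its own y axis.

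Acta1, the skeletal actin, was lower in the mutant. Its log2 signal ran from 13.36 through a median of 13.92 to 14.01 in controls, and from 12.92 through 13.11 to 13.45 in mutants. Mutants were low on 5 of 6 arrays relative to every control, and the overlap came from control 1, the lowest control, and mutant 2, the highest mutant. The means were 13.83 ± 0.23 and 13.17 ± 0.19 (SD, n = 6 each), a difference of -0.66 ± 0.11 (SE; 95% interval -0.90 to -0.42), or 1.58-fold lower, with an adjusted p of 0.00205. Without control 1 the difference was -0.75.

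Actc1, the cardiac actin, was lower by a small amount on the array scale. Its log2 signal ran from 14.64 through 14.66 to 14.70 in controls and from 14.43 through 14.51 to 14.60 in mutants. All 6 mutants lay below all 6 controls. The means were 14.67 ± 0.026 and 14.51 ± 0.056 (SD, n = 6 each), a difference of -0.16 ± 0.039 (SE; 95% interval -0.24 to -0.07), or 1.12-fold lower, with an adjusted p of 0.0197. Leaving out mutant 1 gave -0.14 (adjusted p = 0.0521), leaving out mutants 1 and 2 together gave -0.13 (adjusted p = 0.127), and leaving out control 3, mutant 4 and mutant 6 gave -0.15 (adjusted p = 0.122). With the replicate number added to the model, the difference was -0.16 (limma, adjusted p = 0.0517).

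The signal of Actc1 lay 0.48 log2 units under the mean of the arrays' highest values, which were between 15.06 and 15.09. Probe sets this bright moved little between the groups. Of the 41 genes with a control level of 14.5 or more, the median absolute difference was 0.0121, the largest rise was 0.0559, and Actc1 had the largest fall. It was the 1 gene of the 41 called lower. Among 45 genes between 14 and 14.5 the median absolute difference was 0.0250, and the largest fall was -0.66, of the myosin light chain Myl1. Among 246 genes between 13 and 14, where Acta1 and Tpm1 lay, the median was 0.0388, and among 604 genes between 12 and 13 it was 0.0600. A probe near its highest readable signal understates a change, so the fold of Actc1 is a value on this scale; how far saturation shaped it was not tested.

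Actn2, the alpha-actinin of the Z-disc in all striated muscle fibres, was lower in the mutant. Its log2 signal ran from 12.06 through 12.42 to 12.53 in controls and from 11.64 through 11.81 to 11.98 in mutants. The groups did not overlap, although control 1 was again the lowest control. The means were 12.39 ± 0.17 and 11.82 ± 0.13 (SD, n = 6 each), a difference of -0.57 ± 0.08 (SE; 95% interval -0.74 to -0.40), or 1.48-fold lower, with an adjusted p of 0.000761.

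Actn3, the alpha-actinin of fast fibres, varied more within each genotype than between them. Its log2 signal was 9.46, 9.70, 8.63, 9.57, 8.45 and 6.88 in controls 1 to 6, and 8.93, 9.08, 8.66, 8.12, 8.25 and 6.58 in mutants 1 to 6. The groups overlapped, and the lowest array of each was the one with the low ribosomal RNA signal. The means were 8.78 ± 1.07 and 8.27 ± 0.91 (SD, n = 6 each), a difference of -0.51 ± 0.49 (SE, adjusted p = 0.585). The 95% interval, -1.57 to 0.54, takes in a fall larger than that of any of the other 6 genes, and no change. Without both low arrays, control 6 and mutant 6, the difference was -0.55 ± 0.27 (SE, adjusted p = 0.219). It was -0.89 without control 6 alone, -0.17 without mutant 6 alone and -0.08 without control 3, mutant 4 and mutant 6, and passed under none of these settings. With the replicate number added to the model, the difference of Actn3 was -0.51 ± 0.16 (SE, limma, adjusted p = 0.0879). The labels do not say whether the numbers pair the samples.

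Tpm2, the beta tropomyosin, had the largest mean fall of the 5 lower genes by brightest probe set. Its change did not differ past the threshold from that of Acta1, Actn2 or Tpm1. Its log2 signal ran from 12.02 through 12.30 to 12.93 in controls and from 11.11 through 11.47 to 11.93 in mutants. The groups did not overlap. The means were 12.35 ± 0.34 and 11.49 ± 0.32 (SD, n = 6 each), a difference of -0.86 ± 0.17 (SE; 95% interval -1.22 to -0.50), or 1.82-fold lower, with an adjusted p of 0.00485. This probe set is of a kind that can read more than 1 transcript, so its signal may be shared. With the mean of the 4 probe sets of Tpm2, the difference was -0.69 (limma, adjusted p = 0.0029), close to the -0.66 of Acta1.

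Tpm1, the alpha tropomyosin of fast and cardiac muscle, also fell. Its brightest probe set ran from 13.05 through 13.30 to 13.39 in controls and from 12.61 through 12.80 to 12.94 in mutants. The groups did not overlap, and control 1 was the lowest control. The means were 13.29 ± 0.13 and 12.78 ± 0.14 (SD, n = 6 each), a difference of -0.51 ± 0.07 (SE; 95% interval -0.67 to -0.35), or 1.42-fold lower, with an adjusted p of 0.000918. With the mean of its 4 probe sets in place of the brightest, the difference was -0.24 (adjusted p = 0.0079).

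Tpm3, whose gene gives the tropomyosin of slow fibres and, from other exons, cytoplasmic forms made in most cells, showed no passing change. Its brightest probe set ran from 12.59 through 12.62 to 12.68 in controls and from 12.64 through 12.66 to 12.71 in mutants. The groups overlapped, with 2 mutants above every control. The means were 12.63 ± 0.032 and 12.67 ± 0.029 (SD, n = 6 each), a difference of 0.04 ± 0.036 (SE, adjusted p = 0.549), and the 95% interval of -0.04 to 0.12 leaves out a fall of the size seen in Tpm1 or Tpm2. This holds for the brightest probe set, which may read the cytoplasmic forms.

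Tropomyosin genes make several transcripts from alternative promoters and exons, and their probe sets did not all move alike. Over the 17 probe sets, 9 were lower, 0 were higher and 8 did not pass (limma, adjusted over all 45037 probe sets, of which 2.70% were lower and 2.70% higher). For 6 of the 17 the groups did not overlap, and the matching share over all probe sets was not computed. Over genes, every mutant lay below every control for 2.90%. Without mutants 1 and 2, 5 were lower, and without control 6 and mutant 6, 7. Without control 3, mutant 4 and mutant 6, 2 were lower, that of Actn2 and the brightest of Tpm1. The transcripts that each probe set reads were not known here, so the probe sets are named by their order of brightness within the gene.

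For Tpm1, the brightest and the dimmest of 4 probe sets fell and the other 2 did not pass. The second ran from 12.10 through 12.18 to 12.27 in controls and from 12.09 through 12.34 to 12.47 in mutants. Above every control lay 4 mutants, and 1 lay below, so the groups overlapped. Its difference was 0.13 ± 0.07 (SE, adjusted p = 0.320; 95% interval -0.01 to 0.28). The third, at 7.99 ± 0.17 in controls, differed by 0.16 ± 0.09 (SE, adjusted p = 0.385). The dimmest went from 6.68 ± 0.44 in controls to 5.92 ± 0.15 in mutants (SD, n = 6 each), without overlap, a difference of -0.76 ± 0.16 (SE, adjusted p = 0.0149). It lay close to the median of all probe sets, 6.13.

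The difference between 2 probe sets of a gene was then compared between genotypes within arrays, a test added after the values had been seen. Of 22 such pairs in the 3 tropomyosin genes, 11 passed (exact permutation test over samples, 2-sided, adjusted over the 22). In Tpm1, 4 of 6 pairs passed. The brightest probe set fell relative to the second by 0.64 (exact permutation, adjusted p = 0.00952) and relative to the third by 0.67 (adjusted p = 0.0212). The brightest and the dimmest did not differ in their change past the threshold (0.26, exact permutation, adjusted p = 0.286), nor did the second and the third (-0.03, adjusted p = 0.967).

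All 4 probe sets of Tpm2 were lower, by 0.43 to 0.87 log2 units. The second in brightness had the smallest fall, from 11.98 ± 0.07 to 11.55 ± 0.28 (SD, n = 6 each; difference -0.43 ± 0.11 SE, adjusted p = 0.0286). The dimmest went from 8.70 ± 0.21 to 7.83 ± 0.43 (difference -0.87 ± 0.17 SE, adjusted p = 0.00793). Their changes differed by 0.44 (exact permutation, adjusted p = 0.00952), and 3 of the 6 pairs of Tpm2 passed.

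None of the 5 probe sets of Tpm3 passed the test across probe sets, and 1 of them had an unadjusted p under 0.05. That was the fourth in brightness, which went from 6.62 ± 0.19 to 6.33 ± 0.19 (SD, n = 6 each; difference -0.30 ± 0.10 SE, 95% interval -0.51 to -0.08; unadjusted p from limma = 0.00949, adjusted p = 0.108). The other 4 differed by 0.04 to 0.11. The 4 pairs of Tpm3 that passed, of 10, were those that set this probe set against each of the others, by 0.34 to 0.40 (exact permutation, adjusted p from 0.00952 to 0.0390). It was also close to the median level of all probe sets.

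**Figure D2:**
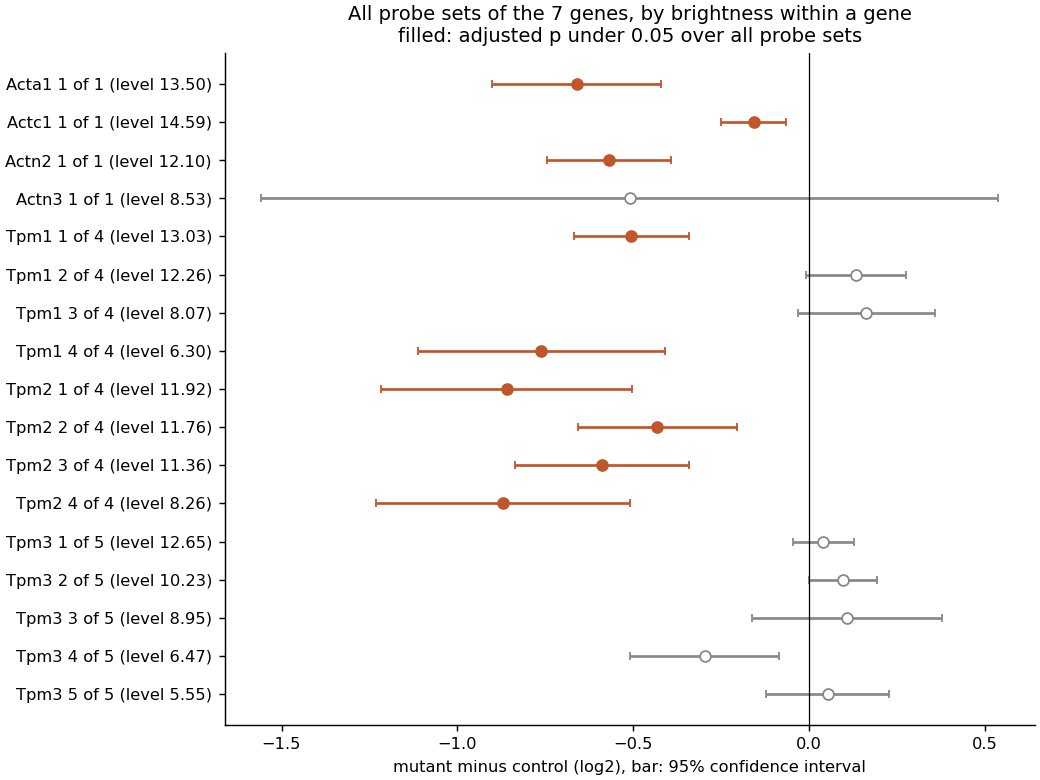
Mutant minus control (log2) on the x axis for each of the 17 probe sets, with its 95% interval, 1 row per probe set ordered by gene and brightness and labelled with its mean level. The 4 probe sets of Tpm2 all lie left of 0, the 4 of Tpm1 lie on both sides of it, and the fourth of Tpm3 lies at -0.30 while its other 4 lie between 0.04 and 0.11.

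Whether the members changed by unlike amounts was tested on the difference between 2 members within each array, compared between genotypes over all 21 pairs (exact permutation, 2-sided, adjusted over the 21; the smallest possible p is 0.00216). Of these, 9 pairs passed. All 4 pairs of Actc1 with Acta1, Actn2, Tpm1 or Tpm2 passed, with changes that differed by 0.35 to 0.70 (exact permutation, adjusted p from 0.00909 to 0.0152), Actc1 having the smaller difference on the array scale. All 4 pairs of Tpm3 with these genes passed too, by 0.55 to 0.90 (exact permutation, adjusted p from 0.00909 to 0.0114). Actc1 fell relative to Tpm3 by 0.20 (exact permutation, adjusted p = 0.00909). The probe set of Actc1 lies near the top of the scale, so these comparisons do not show how its RNA changed relative to the others. That of Tpm3 may read the cytoplasmic forms, so its pairs do not show how its muscle transcript changed.

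Among Acta1, Actn2, Tpm1 and Tpm2, 0 of 6 pairs passed after adjustment, with changes that differed by 0.06 to 0.35 (exact permutation, adjusted p from 0.0909 to 0.379). The pair of Tpm1 and Tpm2 differed by 0.35, with an unadjusted exact p of 0.0433. None of the 6 pairs with Actn3 passed (exact permutation, adjusted p from 0.486 to 0.983). Without control 6 and mutant 6, 8 of the 21 pairs passed. Without control 3, mutant 4 and mutant 6, 0 passed. There 10 had an unadjusted exact p under 0.05, and the lowest adjusted p was 0.0556.

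The 12 measured skeletal muscle markers, which contain none of the 7 genes, fell as well. Of them 11 were lower and 0 higher, with a median change of -0.75. Their mean level ran from 10.94 to 11.48 in controls and from 10.13 to 10.69 in mutants, and none of the 12 was below the median of all probe sets. The mean of the markers changed by -0.80. Each member was set against this mean within each array, a test added after the values had been seen.

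Relative to the marker mean, Tpm3 was higher in mutants by 0.84 and Actc1 by 0.65 (exact permutation, adjusted p = 0.00758 each, over 7). Tpm1 was relatively higher by 0.30 (exact permutation, adjusted p = 0.0152) and Actn2 by 0.24 (exact permutation, adjusted p = 0.0101). By brightest probe set, Tpm1 and Actn2 thus fell by less than the marker mean on the array scale. For Tpm1 this depends on the probe set, as the dimmest changed by -0.76 and those between by 0.13 and 0.16. The changes of the single markers ran from -1.39 to -0.45. Those of Actn2 (-0.57) and of the brightest probe set of Tpm1 (-0.51) lay within that range. The markers Myh3 (-0.45) and Des (-0.49) fell by less than either, so the gap is to the mean and not to every marker. Control levels of Actn2 (12.39) and Tpm1 (13.29) were above that of the marker mean (11.28). Over all genes, the median absolute difference was 0.081 at levels of 10 to 12, 0.060 at 12 to 13 and 0.039 at 13 to 14. The share of genes called lower did not drop in step, at 6.71%, 6.13% and 6.91% in the same ranges. How far the scale shaped the gaps of Actn2 and Tpm1 to the marker mean was not tested. For Actc1, whose probe set lies near the top of the scale, the gap does not show that its RNA fell by less. For Tpm3, the brightest probe set may read the cytoplasmic forms, so the gap does not show how its muscle transcript changed. Acta1 differed from the marker mean by 0.14 (exact permutation, adjusted p = 0.245), Tpm2 by -0.06 and Actn3 by 0.29 (exact permutation, adjusted p = 0.710 each).

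**Figure D3:**
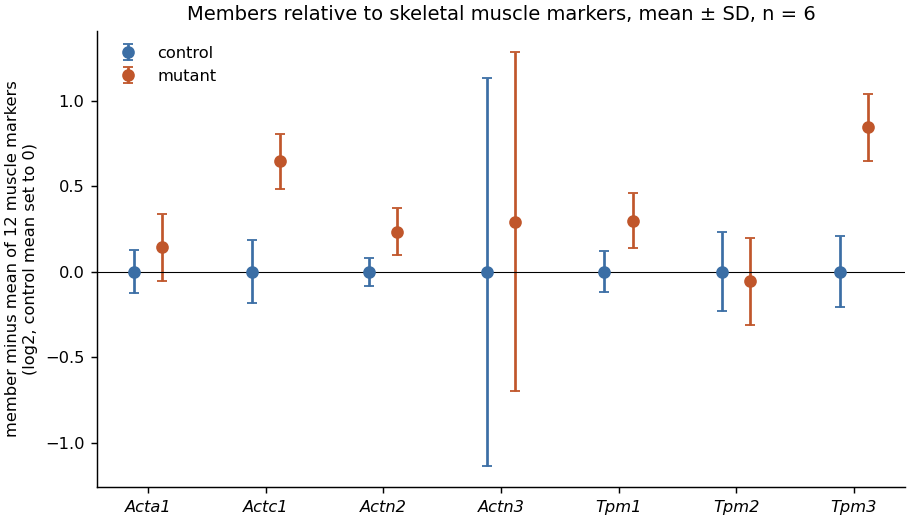
Each member minus the mean of the 12 skeletal muscle markers within an array (log2), shifted so that the control mean is 0, for controls and mutants, as mean and SD over 6 arrays. Mutant means of Tpm3 and Actc1 lie 0.84 and 0.65 above the controls, while those of Acta1 and Tpm2 lie at 0.14 and -0.06. The probe set of Actc1 is near the top of the scale, and that of Tpm3 may read cytoplasmic forms.

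Controls also differed among themselves in the same genes. Relative to the control mean, the average deviation of the 5 lower members was -0.27 in control 1 and between -0.03 and 0.17 in the other 5 controls. It was between -0.70 and -0.36 in the 6 mutants. Control 1 also had the lowest mean of the skeletal muscle markers among controls, 10.94 against 11.24 to 11.48. Within genotypes, over 12 arrays, deviations of Acta1, Actn2, Tpm1 and Tpm2 correlated pairwise at 0.60 to 0.86 as a description, and Acta1 and Actn2 had the highest value. The arrays share their tissue and normalisation.

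The 8 genes whose deviations within genotype were most like the average of the 5 lower members, by Pearson correlation over the 12 arrays, were Ldb3, Nnmt, Smpx, Tnnt3, Lrch1, Ddc, Jph1 and Ufsp1. Their correlations ran from 0.980 for Ldb3 to 0.944 for Ufsp1. These genes were picked as the highest over all genes outside the members, so high values follow from the choice. Ldb3 binds alpha-actinin at the Z-disc, Tnnt3 is the fast troponin T, and Jph1 joins the T-tubule to the sarcoplasmic reticulum. Roles of the others are not given here, and the 8 are not a muscle list. Between genotypes, 7 of the 8 were lower, from -0.45 for Ufsp1 to -1.51 for Tnnt3, where 4.80% of all genes were lower. Lrch1 differed by -0.17 (limma, adjusted p = 0.154).

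The actins, actinins and tropomyosin made outside striated muscle were measured as 7 genes, of which 2 were lower and 0 higher, with a median change of -0.03. Acta2, the actin of smooth muscle, which embryonic skeletal muscle also makes, ran from 14.02 through 14.13 to 14.16 in controls and from 13.41 through 13.66 to 13.95 in mutants. All 6 mutants lay below all 6 controls. The difference was -0.45 ± 0.08 (SE, adjusted p = 0.00304), or 1.36-fold lower. Its other 2 probe sets were dim and did not pass (-0.29, adjusted p = 0.150, and -0.16, adjusted p = 0.350).

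Actg2, the enteric smooth muscle actin, went from 7.86 ± 0.26 to 7.45 ± 0.12 (SD, n = 6 each; difference -0.40 ± 0.11 SE, adjusted p = 0.0251). It did not pass without control 2 (adjusted p = 0.0561), without control 6 (adjusted p = 0.0515), or without mutants 1 and 2 (-0.45, adjusted p = 0.0620), control 3, mutant 4 and mutant 6 (-0.38, adjusted p = 0.125), or control 6 and mutant 6 (-0.32, adjusted p = 0.0888). The muscle actins are alike in sequence, and the brightest probe set of Acta2 is of a kind that can read more than 1 transcript, so its signal may be shared.

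Acta2 and Actg2 belong to the list of 10 smooth muscle markers, of which 5 were lower and 0 higher, with a median change of -0.36. Beside these 2 actins the lower genes were Tagln, Smtn and Lmod1. Rgs5 differed by 0.55 (adjusted p = 0.0651) and Myh11 by 0.04 (adjusted p = 0.832). Their mean level was 7.87 to 8.10 in controls and 7.63 to 7.79 in mutants. The defining markers Myh11, Cnn1 and Kcnmb1 were below the median of all probe sets, while Tagln fell by 0.92 (adjusted p = 0.000331). The part of smooth muscle cells in the falls of Acta2 and Actg2 was not tested.

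The cytoplasmic actins were not lower. Actb differed by 0.03 (adjusted p = 0.753) at a mean level of 14.56, near the top of the scale, and its second probe set by 0.21 (adjusted p = 0.109). Actg1, whose promoter is shown above, differed by 0.10 (95% interval 0.01 to 0.18, adjusted p = 0.155), and passed as higher with a trended and robust variance (adjusted p = 0.0349). Its probe set is of the same kind as the brightest of Acta2, so its signal may be shared too. The non-muscle actinins Actn1 and Actn4, which crosslink actin at adhesions and in the cell cortex, differed by -0.09 (adjusted p = 0.196) and 0.10 (adjusted p = 0.222). Tpm4, a cytoplasmic tropomyosin, differed by -0.03 (adjusted p = 0.650).

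Other genes of the thin filament, the troponin complex and the Z-disc, with some factors of sarcomere assembly, mostly fell. Of 44 measured genes in these 3 lists, 32 were lower, 1 was higher and 11 did not pass, with a median change of -0.76. By role, 11 of 19 genes of the thin filament and its assembly were lower and 1 higher, with a median of -0.73. Klhl40, which stabilises the thin filament proteins nebulin and Lmod3, fell by 0.90, Xirp1, an actin-binding repeat protein, by 0.87, Unc45b, a myosin chaperone, by 0.94, and Fhod3, a formin of sarcomeric actin assembly, by 0.95 (adjusted p from 0.000329 to 0.000583). Nebl, the nebulin relative, rose by 0.46 (adjusted p = 0.0121).

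Of the 8 troponin genes, 7 were lower and 0 higher, with a median of -0.67. Tnnc1, the slow and cardiac troponin C, fell by 0.58, Tnnc2, the fast troponin C, by 0.68, Tnni1, the slow troponin I, by 0.59, and Tnnt2, the cardiac and embryonic troponin T, by 0.80 (adjusted p from 0.000338 to 0.000946). The gene that did not pass was the cardiac Tnni3, which was below the median of all probe sets. Of 17 genes listed as Z-disc partners, 14 were lower and 0 higher, with a median of -0.84. This list includes the M-band gene Myom1, which was lower. It also includes the non-muscle actinin Actn1, counted among the paralogs too, which did not pass. Among them Myoz1, an actinin-binding calsarcin, fell by 1.01, Myot, or myotilin, by 1.15, Tcap, which caps titin, by 0.75, and Pdlim5, a PDZ and LIM protein that binds actinin, by 0.96 (adjusted p from 0.000329 to 0.000526).

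**Figure D4:**
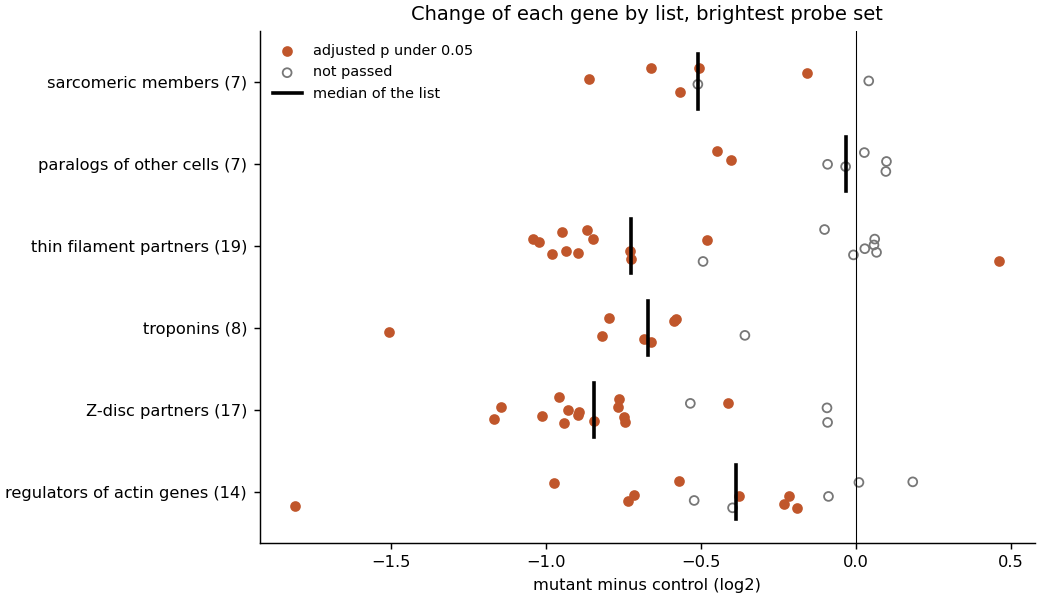
Mutant minus control (log2) on the x axis for each measured gene of the members, their paralogs outside striated muscle, the partners and the regulators, 1 row per list, with filled points for an adjusted p under 0.05 and open points for genes that did not pass. Members have a median of -0.51, paralogs of -0.03, and the thin filament, troponin and Z-disc lists of -0.73, -0.67 and -0.84.

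Of 14 measured genes that regulate the muscle actin promoters or myogenesis, 9 were lower and 0 higher, with a median of -0.39. Myf5, a myogenic factor and the gene whose control drives the Cre, fell by 1.81 (adjusted p = 0.000283). Myog, the factor of myocyte differentiation, fell by 0.72 (adjusted p = 0.00268), Mef2c, its partner at muscle promoters, by 0.57 (adjusted p = 0.00381), and Tead4, which binds the CATTCC letters, by 0.38 (adjusted p = 0.000905). Srf, the gene of serum response factor, was at -0.22 (limma, adjusted p = 0.0205). Its cofactor genes Mrtfa (0.01, adjusted p = 0.960) and Mrtfb (0.18, adjusted p = 0.0717) did not pass. Both groups carry Myf5-Cre.

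Levels of other tissues moved in the same arrays. Mesenchyme markers were higher for 7 and lower for 1 of 10 (median 0.40; mean level 10.41 to 10.60 in controls and 10.69 to 11.02 in mutants). Epithelial markers were higher for 5 of 10 (median 0.26; 10.45 to 10.82 and 10.80 to 11.13) and neuronal markers for 8 of 8 (median 0.73; 7.91 to 8.22 and 8.53 to 9.36). Cardiac markers were lower for 1 and higher for 1 of 9, and Nppa, Myl7, Tnni3, Gata4 and Tbx5 were below the median of all probe sets in this tissue. Cartilage markers were higher for 3 of 7, endothelial for 1 of 7, macrophage for 1 of 6, and erythroid for 0 of 6. The part of this shift in tissue makeup in the falls of the members was not tested. The 3′ minus 5′ difference of the Actb control probe sets, a sign of RNA quality, averaged 0.395 in controls and 0.440 in mutants (exact permutation p = 0.110).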

How the data were processed

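RNA of 12 tongues or tongue pools was read on 1 Affymetrix array each. The deposited log2 values per probe set are RMA summaries by the authors, as the submitters' processing notes name it; the sources used here do not give the software or the logarithm base. Base 2 was read from the range, 2.57 to 15.09. RMA forces arrays to 1 distribution and compresses dim changes. Of 45101 probe sets 64 controls were left out; platform annotation gave 1 symbol for 34945, several for 932 and none for 9160. Of these symbols, 34741 were checked against RefSeq (GRCm38.p6) and 0 changed. Genotypes were tested in limma 3.58.1 (R 4.3.3; lmFit, eBayes, 2-sided, Benjamini-Hochberg over all genes or all probe sets), and differences within arrays with exact permutation tests over all 924 splits (SciPy 1.17.1). Arrays have no counting depth; precision is limited by their number. On simulated data for this comparison with 18193 genes, 200 of them changed, 86% of changes of 0.5 and 100% of changes of 1 were recovered, and 4.12% of calls were unchanged genes. The simulated noise was drawn separately for each gene and array. Genes of the measured arrays vary together, so these shares are not error rates of the measured data.

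The members and lists were chosen with earlier results of these data known. Named were the members, their 7 paralogs, up to 4 passing genes of smallest p per list, Smad4, Myf5 and the 8 genes most like the members. Other genes (Nebl, Tagln, Smtn, Lmod1, Rgs5, Tnni3, Myl1, Myom1, Srf, Mrtfa, Mrtfb and the dim markers) were named after their values were seen. The alternatives were quantile normalisation, array centring, mean or dimmest probe sets, a filter on dim genes, trended variance, weights per array, a replicate block and leaving out arrays. Mkl1, Mkl2 and Xirp2 were not measured under those names.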

Additional observations from a re-analysis of the deposited data

Results flagged for a closer look

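Control 1 stood below the other 5 controls for 3 of the brightest probe sets, by a gap that was large against the range of the group. It was at 13.36 for Acta1, where the others lay between 13.83 and 14.01, at 12.06 for Actn2, where the others lay between 12.38 and 12.53, and at 13.05 for the brightest probe set of Tpm1, where the others lay between 13.29 and 13.39. These were 3 of 34 groups of arrays checked, and chance alone gives about 1 in 20 where groups are independent. The 3 flags came from the same array, and the 3 genes correlated pairwise at 0.63 to 0.86 within genotypes. They are thus not 3 separate events, and the count cannot be set against that rate. Without control 1 the differences were -0.75 for Acta1, -0.63 for Actn2 and -0.55 for Tpm1.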

How the results depend on the processing

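Acta1, Actn2, Tpm1 and Tpm2 stayed lower past the threshold in each of 23 alternatives, from -0.75 to -0.58, -0.63 to -0.52, -0.76 to -0.24 and -0.95 to -0.69. Acta1, Actc1, Actn2 and Actn3 had 1 probe set each, so the mean and dimmest settings repeated their main differences. For Tpm1, no alternative used alone the probe sets between the brightest and the dimmest, which did not pass (0.13 and 0.16). Actc1 ran from -0.18 to -0.13 and was lost in 4 of 23, 3 of them with arrays left out and the replicate block (-0.16, adjusted p = 0.0517). Samples of 1 number deviated together in 5 of 6 pairs at a correlation over 0.1 and otherwise down to -0.06. Of the 12 arrays, 7 correlated best with their own number. The labels do not state pairing, so the main fit was unpaired, and whether the numbers mark a shared batch was not tested. With the replicate block 4 members and 8 member probe sets were lower. Actn3 passed in none (-0.89 to -0.08; adjusted p = 0.0879 with the replicate block). Tpm3 turned to -0.00048 with the mean of its probe sets (adjusted p = 0.998). Members called were 4 to 5, and partners 30 to 33. Paralogs called were 3 with a trended and robust variance, Actg1 being added as higher, 1 to 2 with 1 array left out, and 1 without mutants 1 and 2, without control 3, mutant 4 and mutant 6, or without control 6 and mutant 6. Member probe sets called lower were 5 without mutants 1 and 2 and 2 without control 3, mutant 4 and mutant 6, where 0 member pairs passed (9 with all arrays, and 9 to 10 with 1 array left out) and the smallest exact p allowed is 0.00794. The arrays left out together, the marker comparison and the pairs of probe sets were chosen after seeing the data.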
